A study of Mus musculus with 8 samples.

Results

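The genes described here encode enzymes of heme synthesis (Alas1, Alas2, Alad, Uros, Urod, Cpox, Ppox and Fech) and heme oxygenase 1 (Hmox1), which breaks heme down. They are 9 of the 19505 genes measured, and each was chosen by its symbol and is represented by 1 probe set. Expression was measured on 8 arrays in hematopoietic stem cells, the cells from which all blood lineages derive, sorted from the bone marrow of mice 6 to 10 weeks old. The sort kept cells without lineage markers that carried Sca-1, c-Kit and CD150 and lacked CD48. All cells were cultured with stem cell factor at 100 ng/ml for 16 h, either with eltrombopag at 10 µg/ml or with sterile water as the vehicle, 4 arrays each. The labels give no strain or genotype. The titles call the replicates biological, but the labels do not say if separate animals stand behind each. The p-values thus cover just the spread between these arrays. Eltrombopag is an agonist of the thrombopoietin receptor that also binds iron, and its receptor activity is known to be species-specific, with little action on the mouse receptor.

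Heme is an iron-containing ring that serves hemoglobin, cytochromes and many other proteins. Its synthesis starts in the mitochondrion with 5-aminolevulinate synthase, runs through the cytosol and ends in the mitochondrion, where ferrochelatase inserts iron into the finished ring. Alas1 encodes the 5-aminolevulinate synthase found in all tissues, whose transcript is known to be repressed by heme, and Alas2 encodes the erythroid form. The Alas2 transcript carries an iron-responsive element that controls its translation, a step that an array of transcripts does not measure. Hmox1 is known to be induced by heme and oxidative stress, through NRF2 and against the repressor BACH1.

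The arrays lay apart by replicate number. On the first principal component, with either treatment, the scores of numbers 1 and 2 ran from -20.3 to -12.1 and those of numbers 3 and 4 from 14.7 to 17.2. The arrays numbered 3 also stood apart in the Y-linked genes Uty (6.98 to 7.71, against 3.02 to 3.31 in the other 6 arrays) and Kdm5d (6.36 to 7.08, against 3.37 to 3.81), on the log2 scale. Of 10 stem cell markers 7 were measured. Kit, which encodes the sorted marker c-Kit, lay between 12.82 and 12.94 in all 8 arrays, and Slamf1, which encodes CD150, lay between 6.19 and 7.75. Hlf lay at 11.19 to 11.33 in numbers 1 and 2 and at 11.61 to 11.78 in numbers 3 and 4. Meis1 lay at 10.36 to 10.47 and at 10.63 to 10.81. For every other measured stem cell marker these ranges overlapped. Cd48, whose product the sorted cells lacked, lay between 5.66 and 6.55 on its own probe set, where the lower quartile of all genes was 4.99 to 5.11 per array.

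No heme enzyme passed the test between eltrombopag and vehicle. The test was limma, fitted over all genes with Benjamini-Hochberg adjustment, and a gene was called at an adjusted p under 0.05. It called 0 of the 9 genes and 0 of all 19505 (0%), and the adjusted p was 0.99978 for every heme enzyme. Before adjustment, 0 of the 9 had a p under 0.05, against 3.33% of all genes. Differences are given as eltrombopag minus vehicle on the log2 scale. They ran from -0.17 for Uros to 0.088 for Alas1, with 6 of 9 below 0, against 47.7% of all genes, and a median of -0.047, against 0.0071 over all genes. The groups overlapped for all 9 genes, and 2.12% of all genes had groups that did not overlap. All 9 had 95% intervals of the difference that lay within 2-fold either way (98.7% of all genes), and every one but Alas2 lay within 1.5-fold (88% of all genes). With the replicate number as a block, the interval of Alas2 ran from -0.40 to 0.31, and all 9 lay within 1.5-fold. These intervals are not adjusted over genes. Without both arrays numbered 3, 0 of the 9 passed as well. There 1 of the 9 (Cpox) had a p under 0.05 before adjustment, against 629 of all 19505 genes.

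**Figure D1:**
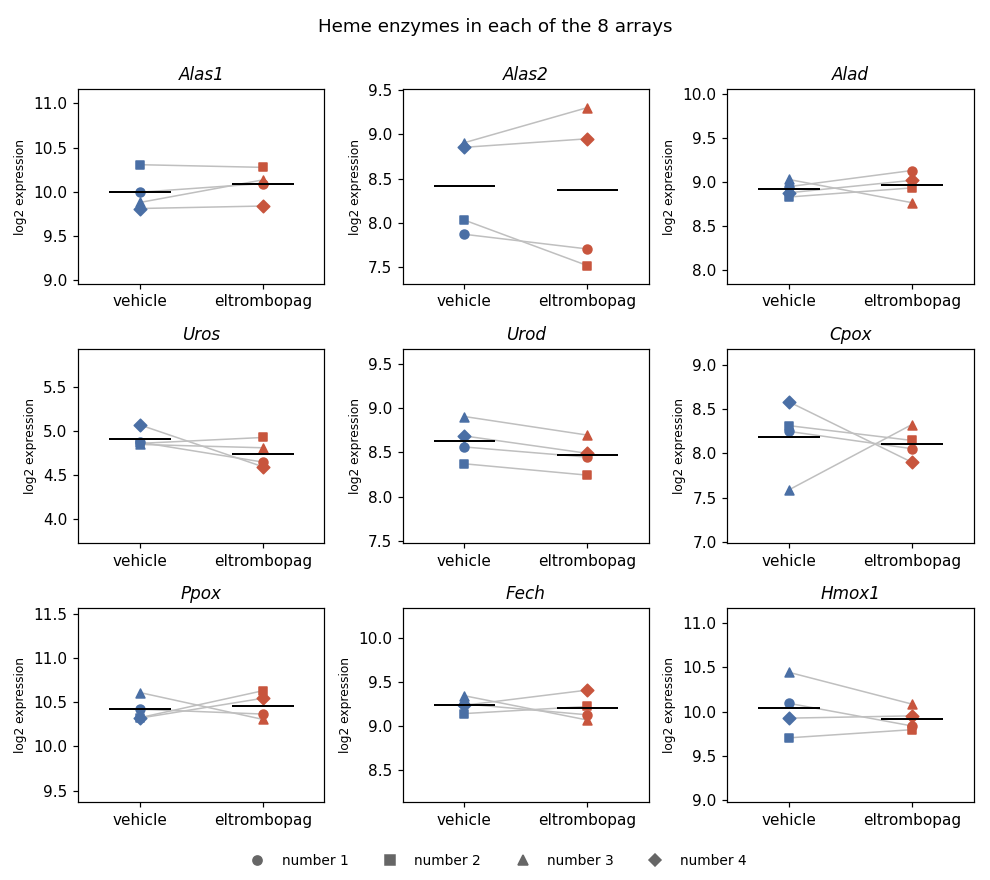
Log2 expression (vertical axis, 2.2 units in every panel) of the 9 heme enzymes with vehicle (blue) and eltrombopag (red), 1 symbol per replicate number, with bars at the group means of 4 arrays and grey lines joining arrays of the same number. The groups overlap in every panel, and Alas2 has the widest range, from 7.51 to 9.30.

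Alas2 had the widest range of the 9 genes, and its values lay apart by replicate number. Its log2 values with vehicle were 7.87, 8.03, 8.91 and 8.85 in arrays 1 to 4. With eltrombopag they were 7.70, 7.51, 9.30 and 8.95. The 4 arrays numbered 1 and 2 thus lay at 7.51 to 8.03 and the 4 numbered 3 and 4 at 8.85 to 9.30, with a gap between them that both treatments share. The average of numbers 3 and 4 was 2.34-fold that of numbers 1 and 2. The range over the 8 arrays was 1.79, or 3.46-fold, and 0.754% of all genes had a range at least as wide.

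Between treatments Alas2 gave no difference beyond that spread. The mean with vehicle was 8.41 ± 0.54 (SD, n = 4), and eltrombopag gave 8.37 ± 0.89 (SD, n = 4). The difference was -0.047 (SE 0.40), with a 95% interval from -0.94 to 0.85. By number it was -0.17 and -0.52 for numbers 1 and 2 and 0.40 and 0.097 for numbers 3 and 4. Its sign followed single arrays. Without vehicle array 3 the difference was 0.12, without vehicle array 4 it was 0.0995, without eltrombopag array 1 it was 0.17 and without eltrombopag array 2 it was 0.24. Without eltrombopag array 3 it was -0.36, and without both arrays numbered 3 it was -0.19 (adjusted p 0.9998 in limma).

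The promoter sequence of Alas2 is shown for the GATA-type motif it holds, since GATA1 is the erythroid factor known to drive this gene. The stretch of 30 bases is from chrX:150547319-150547348, plus strand, in the RefSeq promoter table of build GRCm38.p6. The capitals mark AGATAA, read here on the opposite strand as TTATCT, whose first base lies 86 bases before the gene's start.
Alas2: ctactttgctttTTATCTttagcagaggcc
Of the 32851 promoters in that table, 9.99% held this motif on either strand within 250 bases before the start. Of the 7 heme enzymes with an entry in the table, Alas2 was the 1 that held it in any of its promoters there.

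Erythroid markers were looked at beside Alas2, of which 10 of 15 listed were measured. Their mean log2 level per array lay between 7.27 and 7.41 with vehicle and between 7.26 and 7.71 with eltrombopag. In numbers 1 and 2 it lay between 7.26 and 7.32, and in numbers 3 and 4 between 7.30 and 7.71. Slc4a1, the anion exchanger of the red cell membrane, lay at 7.58 to 8.25 in numbers 1 and 2 and at 8.01 to 8.45 in numbers 3 and 4. Tfr2 lay at 9.48 to 9.92 in numbers 1 and 2 and at 9.94 to 10.12 in numbers 3 and 4. For every other measured marker these ranges overlapped. Car1, an erythroid carbonic anhydrase, stood at 6.76 in eltrombopag array 3 and between 4.47 and 4.999 in the other 7 arrays. Gata1 lay between 7.46 and 7.80 throughout. Between treatments 7 of the 10 markers were higher with eltrombopag and 3 lower, and 0 passed in limma. The one with a p under 0.05 before adjustment was Epor, the erythropoietin receptor, with a difference of 0.34 (SE 0.14), higher in 4 of 4 numbers, while Icam4 differed by -0.23 (SE 0.11) and Tfr2 by -0.094 (SE 0.14). The part of these genes in the Alas2 pattern was not tested. In bulk RNA, more cells of a type and more RNA per cell cannot be told apart.

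**Figure D2:**
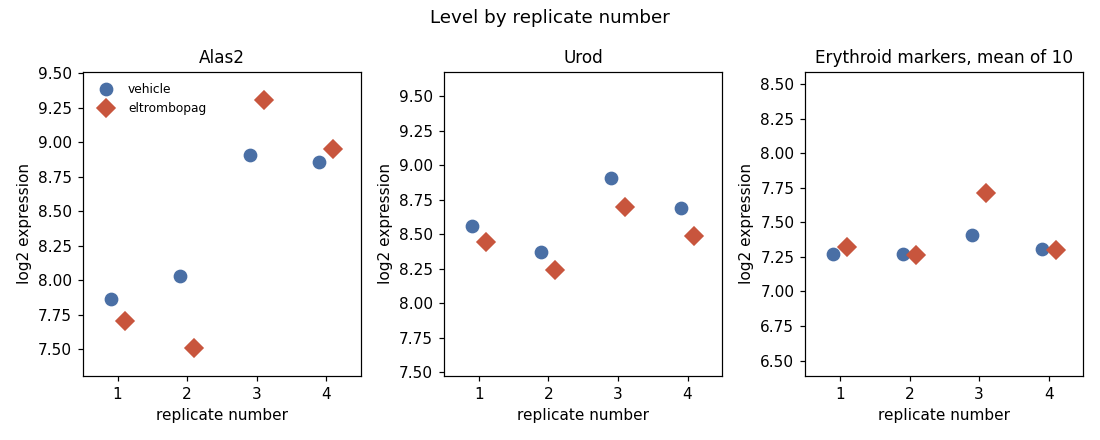
Log2 expression of Alas2, Urod and the mean of 10 erythroid markers (vertical axes, 2.2 units each) against replicate number, with vehicle (blue circles) and eltrombopag (red diamonds). Alas2 lies at 7.51 to 8.03 in numbers 1 and 2 and at 8.85 to 9.30 in numbers 3 and 4, while the erythroid mean stands higher in eltrombopag array 3 (7.71).

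Differences between the 4 replicate numbers were tested with a limma F test that held treatment as a term, chosen after the pattern was seen. It called 0 of the 9 heme enzymes and 41 of all genes (0.21%). Alas2 came nearest, with an adjusted p of 0.117 (unadjusted 0.000528) in limma. Of the sum of squares of Alas2 over the 8 arrays, 93.0% lay between numbers and 0.134% between treatments. A share between numbers at least as large was found in 2.22% of all genes, and the median over all genes was 49.8%. Before adjustment, 2 of the 9 had a p under 0.05, Alas2 and Urod (0.0258), against 10.2% of all genes. For Alas1 85.2% of the sum of squares lay between numbers, for Urod 81.7% and for Hmox1 72.7%. The remaining 5 genes had shares from 6.25% for Ppox to 31.2% for Alad, all below the median of all genes.

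**Figure D3:**
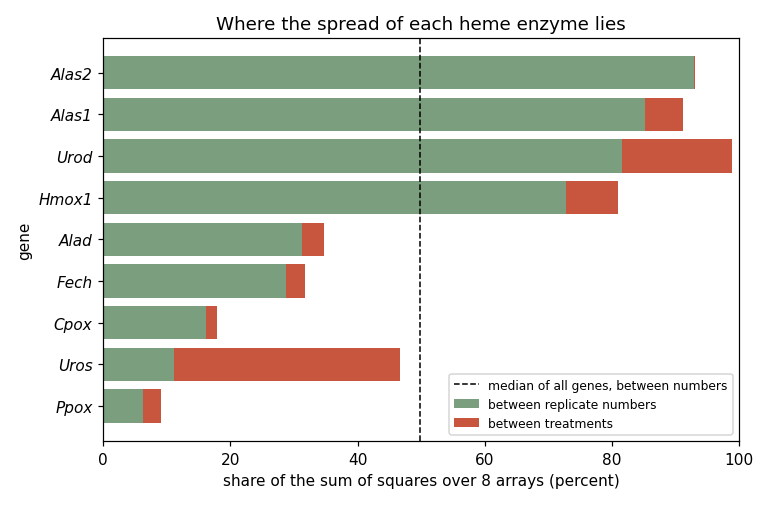
Share of each gene's sum of squares over the 8 arrays (horizontal axis, percent) that lies between replicate numbers (green) and between treatments (red), with the median share between numbers over all genes as a dashed line at 49.8%. Alas2, Alas1, Urod and Hmox1 lie above that line, and Uros has the largest share between treatments (35.4%).

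Alas1, the ubiquitous counterpart of Alas2 for the same reaction, had a range of 0.50 over the 8 arrays. With vehicle its log2 values were 10.00, 10.31, 9.88 and 9.81 in arrays 1 to 4, and with eltrombopag they were 10.09, 10.28, 10.13 and 9.84. Array 2 was the highest and array 4 the lowest in both groups. The difference was 0.088 (SE 0.13), with a 95% interval from -0.21 to 0.39. By number it ran from -0.030 to 0.26. Where numbers 3 and 4 averaged 1.22 above numbers 1 and 2 on the log2 scale for Alas2, they averaged -0.25 for Alas1.

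Of the cytosolic enzymes, Alad encodes the one that joins 5-aminolevulinate into porphobilinogen. Its log2 values were 8.95, 8.83, 9.03 and 8.88 with vehicle and 9.13, 8.93, 8.77 and 9.02 with eltrombopag. Eltrombopag array 3 was the lowest of the 8 and eltrombopag array 1 the highest, so the eltrombopag arrays spanned all the vehicle values. The difference was 0.041 (SE 0.10), higher in 3 of 4 numbers.

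Uros closes the ring as uroporphyrinogen III. Its log2 values were 4.87, 4.86, 4.85 and 5.07 with vehicle and 4.65, 4.93, 4.81 and 4.597 with eltrombopag. Vehicle array 4 lay above the other 3 vehicle arrays, which were close together, and eltrombopag array 4 was the lowest of all. The difference was -0.17 (SE 0.11), the lowest of the 9, with a 95% interval from -0.40 to 0.069. Uros was also the 1 heme enzyme whose mean (4.83) lay below the median of all genes, so its values rest on a dim signal.

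Urod, which removes carboxyl groups from the ring, was the 1 heme enzyme with the same direction in all 4 numbers (12.6% of all genes have 1 direction, and 5.87% are lower, in all 4). Its log2 values were 8.56, 8.37, 8.91 and 8.69 with vehicle and 8.45, 8.24, 8.70 and 8.49 with eltrombopag. In both groups array 3 was the highest and array 2 the lowest, and each eltrombopag array lay a little below the vehicle array of its number. These steps were -0.12, -0.13, -0.21 and -0.20. The means were 8.63 ± 0.22 (SD, n = 4) and 8.47 ± 0.19 (SD, n = 4), and the difference of -0.16 (SE 0.14) did not pass, with a 95% interval from -0.47 to 0.14.

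The promoters of Urod and Cpox are shown since these genes had the most even and the most uneven differences by number. Each is the 250 bases before the gene's start in the RefSeq table, at chr4:116994414-116994663 (minus strand) for Urod and chr16:58669958-58670207 (plus strand) for Cpox, build GRCm38.p6. In Urod the capitals mark CACGTG, the E-box bound by MYC and USF proteins. In Cpox they mark CACACCC, a motif of the erythroid factor KLF1, and the GATA-type motif TGATAA, both of which lie on the opposite strand and appear as their reverse complements.
Urod: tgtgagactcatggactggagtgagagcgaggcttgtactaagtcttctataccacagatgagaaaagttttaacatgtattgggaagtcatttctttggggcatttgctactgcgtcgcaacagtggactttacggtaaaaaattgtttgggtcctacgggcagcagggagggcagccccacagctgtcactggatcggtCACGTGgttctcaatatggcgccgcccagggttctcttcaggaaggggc
Cpox: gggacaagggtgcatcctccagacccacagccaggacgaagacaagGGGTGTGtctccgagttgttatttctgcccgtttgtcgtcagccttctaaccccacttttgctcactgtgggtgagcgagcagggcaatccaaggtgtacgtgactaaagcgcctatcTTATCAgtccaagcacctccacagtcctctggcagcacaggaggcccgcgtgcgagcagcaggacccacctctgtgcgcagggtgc
The E-box of Urod lies 49 bases before the start, and the GATA-type motif of Cpox lies 86 bases before it. Over all promoters, on either strand, 6.02% held CACGTG, 7.94% held TGATAA and 6.93% held CACACCC. Of the 7 heme enzymes with an entry, 3 held CACGTG (Alad, Uros and Urod), 2 held TGATAA (Uros and Cpox) and 1 held CACACCC (Cpox). An enzyme counted if any of its promoters held the motif, while the shares count single promoters (32851, of 27025 genes). The antioxidant response motif TGACNNNGC, held by 10.2% of all promoters, was in 0 of the 7. The motifs overlap none of each other in the sequences shown, and a match describes letters in this window and nothing about binding.

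Cpox encodes coproporphyrinogen oxidase, which works between the mitochondrial membranes. Its log2 values with vehicle were 8.25, 8.31, 7.59 and 8.58, and with eltrombopag 8.05, 8.15, 8.33 and 7.90. Vehicle array 3 was the lowest and vehicle array 4 the highest of the 8, so the vehicle arrays spanned all the eltrombopag values. By number the difference was -0.20, -0.17, 0.74 and -0.68, and on average -0.077 (SE 0.19). Without both arrays numbered 3 it was -0.35 (SE 0.14), with a 95% interval from -0.66 to -0.038 and an unadjusted p of 0.0320, and did not pass (adjusted p 0.9998 in limma). Without vehicle array 4 it was 0.056.

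Ppox, which oxidises the ring to protoporphyrin, was among the most even of the 9. With vehicle the log2 values were 10.42, 10.33, 10.61 and 10.32, and with eltrombopag 10.37, 10.63, 10.31 and 10.55. The difference was 0.043 (SE 0.11), higher in 2 of 4 numbers, and the range over all 8 arrays was 0.33, the narrowest of the 9.

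Fech encodes ferrochelatase, the enzyme that puts ferrous iron into protoporphyrin. Its log2 values were 9.25, 9.14, 9.34 and 9.23 with vehicle and 9.13, 9.22, 9.07 and 9.41 with eltrombopag. Eltrombopag arrays 3 and 4 were the lowest and the highest of the 8. The difference was -0.036 (SE 0.10), with a 95% interval from -0.26 to 0.19, and lower in 2 of 4 numbers.

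Hmox1, the enzyme that opens the heme ring and frees its iron, gave log2 values of 10.09, 9.70, 10.44 and 9.93 with vehicle. With eltrombopag they were 9.84, 9.79, 10.08 and 9.95. Vehicle array 3 was the highest and vehicle array 2 the lowest, and the eltrombopag arrays lay between them. The difference was -0.12 (SE 0.15), with a 95% interval from -0.46 to 0.21. The upper end of that interval, not adjusted over genes, stands for a 1.16-fold higher level with eltrombopag. By number it was -0.26, 0.093, -0.36 and 0.026. Without vehicle array 3 the difference was 0.0098.

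Macrophage and monocyte markers were looked at beside Hmox1, which such cells express strongly. Of 12 listed, 11 were measured, and their mean log2 level per array lay between 5.99 and 6.23 with vehicle and between 6.05 and 6.20 with eltrombopag. Vehicle arrays 1 and 3, the highest in Hmox1, also had the highest marker means (6.23 in both), and vehicle array 2, the lowest in Hmox1, had the lowest (5.99). With eltrombopag, array 3 was the highest both in Hmox1 (10.08) and in the marker mean (6.20). Eltrombopag array 4 had the lowest marker mean (6.05), although Hmox1 was lower in arrays 1 and 2. Single markers did not all follow Hmox1 either. Spic, a factor of iron-recycling macrophages, stood at 7.15, 7.09, 6.06 and 6.77 in vehicle arrays 1 to 4, so lowest in array 3. Lyz2 stood at 7.90, 7.42, 8.22 and 7.96 in the same arrays. Of the 11 markers, Lyz2, Cd14, Ly6c2 and Ccr2 were highest in vehicle array 3 and lowest in vehicle array 2, as Hmox1 was. The other markers were not. Over all 8 arrays Spic ran from 5.21 to 7.496, and Lyz2 from 7.42 to 8.23. The part of these genes in the Hmox1 values was not tested.

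**Figure D4:**
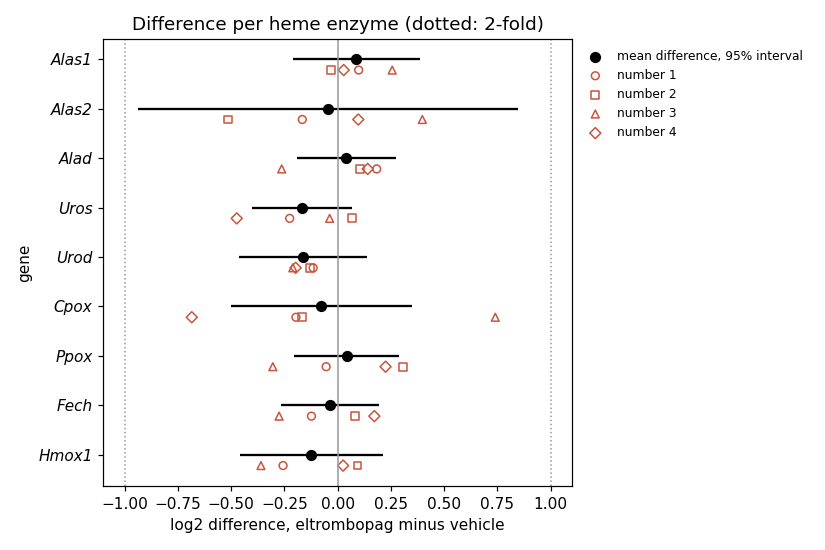
Log2 difference, eltrombopag minus vehicle, of the 9 heme enzymes (filled points, with 95% intervals from limma) and the difference within each replicate number (open symbols). Every interval spans 0 and lies inside the dotted 2-fold lines, and the 4 open symbols lie on the same side of 0 for Urod only.

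Other genes of heme handling gave the same picture, with 0 of 21 measured genes passing (0% of all genes) out of 24 listed. Of these 21, 11 were higher and 10 lower, with a median difference of 0.0074, against 0.0071 over all genes. Before adjustment, 1 had a p under 0.05, Blvra, against 3.33% of all genes. Blvra encodes biliverdin reductase A, which acts just after heme oxygenase. Its log2 values were 7.68, 7.86, 8.06 and 8.21 with vehicle and 8.14, 8.29, 8.24 and 8.31 with eltrombopag. Every eltrombopag array lay above the vehicle array of its number, and the groups overlapped only through vehicle array 4. The difference was 0.29 (SE 0.12), with a 95% interval from 0.022 to 0.56 and an adjusted p of 0.99978 in limma. At the other end of the list were Hebp1, a heme-binding protein, at -0.25 (SE 0.13), and Slc25a38, the mitochondrial glycine carrier that feeds the first step, at -0.22 (SE 0.14), both named after their values were seen. Hmox2, the constitutive heme oxygenase, differed by -0.022 (SE 0.11). The regulators of Hmox1 differed by 0.0074 (SE 0.10) for Bach1 and -0.12 (SE 0.10) for Nfe2l2.

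**Figure D5:**
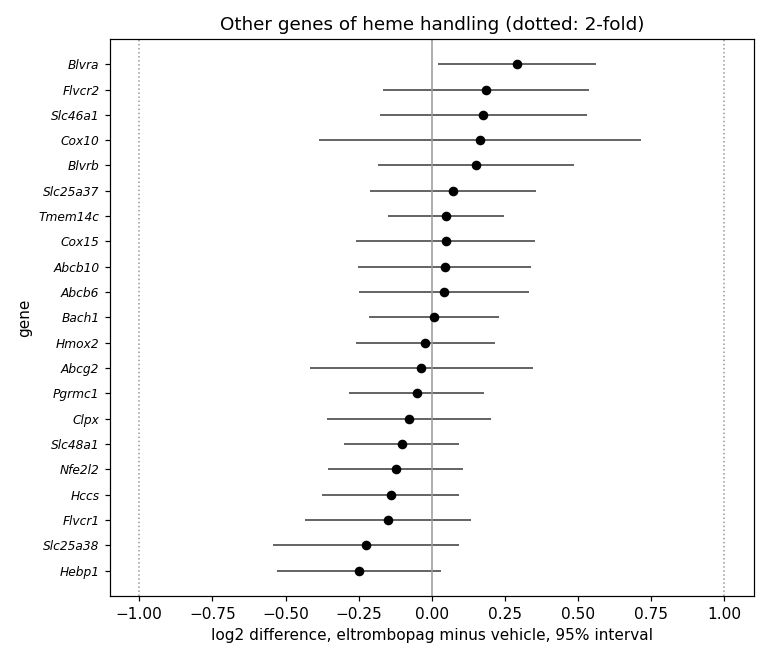
Log2 difference, eltrombopag minus vehicle, with 95% intervals from limma, of 21 other genes of heme synthesis, transport and breakdown, ordered by their difference. All intervals lie inside the dotted 2-fold lines, and the interval of Blvra (0.022 to 0.56) does not span 0.

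The genes most like Alas2 over the 8 arrays were Chil3, Plxna4, Ache, P2rx1 and Aldh1a1. Likeness was the root mean square distance between log2 values, each centred on the gene's own mean. It was 0.20 for Chil3, 0.23 for Plxna4, 0.24 for Ache and for P2rx1 and 0.25 for Aldh1a1, where the median over all genes was 0.66. Chil3, a secreted chitinase-like protein of myeloid cells, lay at 4.09 to 4.46 in numbers 1 and 2 and at 4.81 to 5.43 in numbers 3 and 4. Aldh1a1, a retinaldehyde dehydrogenase, lay at 7.19 to 7.59 and at 8.12 to 8.62. The genes most like Hmox1 were Gpr107 (0.065), Hs2st1 (0.084), Olfr1133 (0.089), Ccdc113 (0.092) and C1qtnf9 (0.093), against a median of 0.27 over all genes. Gpr107 shared its high vehicle array 3 (8.20), where the remaining vehicle arrays had 7.49 to 7.84. Chil3, Plxna4, Olfr1133, Ccdc113 and C1qtnf9 lay below the median of all genes in every array, so their values rest on a dim signal. All the genes listed here were picked as the nearest, so distances below the median follow from that choice.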

How the data were processed

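The authors deposited a log2 value for each probe set on each array. Per the submitters' processing notes, RMA, oligo and limma were used (versions not given). Per the labels' protocols, about 10 ng of RNA was amplified by in vitro transcription from the 3' side. RMA sets arrays to a common distribution, so differences in total RNA are removed. The probe sets' genome build was not given in the sources used here. Of 22206 probe sets the platform annotation paired 19572 with 1 symbol, 0 with several and 2634 with none. For 55 genes with several, the one with the highest mean was used, which left 19505 genes, with no filter on dim genes. The number of arrays limits the precision.

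Groups and numbers came from the titles. limma 3.58.1 in R 4.3.3 (lmFit, eBayes) tested group, two-sided, with Benjamini-Hochberg adjustment over all genes, and was tested on simulated data. Deviations from the group means correlated at 0.142 to 0.294 for arrays of the same number, all over 0.1, and at -0.208 to 0.171 for others. By that measure the numbers pair the arrays, which the labels do not state. The reported values come from the fit without the number, and the fit with it as a block was an alternative. The members and lists were chosen with earlier results of these data known. All members are named. Of the other pathway genes, those at an unadjusted p under 0.05 were to be named, or else the 3 with the largest differences, and Hebp1, Slc25a38, Hmox2, Bach1 and Nfe2l2 were added. Listed genes with no probe set under their symbol are not analysed here. Promoters were matched by symbol for 7 of 9 members, not for Fech and Hmox1.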

Additional observations from a re-analysis of the deposited data

Results flagged for a closer look

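Among 34 genes (68 groups of 4 arrays), 2 groups held an array set clearly off from its 3 companions. The genes looked at were the heme enzymes, the other measured pathway genes, and Car1, Epor, Slc4a1 and Cd48. Chance flags about 1 group in 20, or 3.4 here. Car1 was already described above by its outlying array, so its flag cannot be set against chance. For Uros, vehicle array 4 read 5.07 and its companions 4.85 to 4.87, a gap of 0.886 of the whole range. For Car1, an erythroid marker and no heme enzyme, eltrombopag array 3 read 6.76 and its companions 4.47 to 4.77, a gap of 0.868 of the whole range.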

How the results depend on the processing

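The counts of called genes and called heme enzymes were 0 in all 21 alternative settings, with a smallest adjusted p of 0.984 among the heme enzymes, and exact permutation tests of single heme enzymes gave p from 0.20 to 0.914 (smallest possible 0.0286). The replicate block changed no call. It took the genes with a p under 0.05 before adjustment from 650 to 904 and gave an SE of 0.15 in place of 0.40 for Alas2, and the filter on dim genes, which tests fewer genes, gave 304. Alas1, Uros and Urod had 1 sign throughout, although Uros was left out by the filter on dim genes. In numbers 3 and 4 only, the difference was 0.25 for Alas2, -0.061 for Alad, 0.027 for Cpox and -0.040 for Ppox, and without both arrays numbered 3 it was 0.043 for Fech, each of the other sign. Leaving out 1 array in turn moved Alas1 between 0.025 and 0.19, Alas2 between -0.36 and 0.24, Alad between -0.015 and 0.11, Uros between -0.23 and -0.12, Urod between -0.25 and -0.071, Cpox between -0.28 and 0.056, Ppox between -0.013 and 0.11, Fech between -0.10 and 0.0098 and Hmox1 between -0.24 and 0.0098. The cause was not tested. Across the 4 numbers, 2 genes were called without both arrays numbered 3 in place of 41. With 1 array left out, 3 to 17 were called. In these settings the adjusted p of Alas2 in limma was 0.175 to 0.321. Without the treatment term it was 0.0523, and Alas2 did not pass in any setting. The test across numbers and its settings were chosen after seeing the data.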
